A study of Mus musculus with 8 samples.

Results

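The genes described here are the molecular chaperones and the folding machinery of the endoplasmic reticulum. They were taken by gene symbol alone: the heat shock protein genes (Hsp), the J-domain protein genes (Dnaja, Dnajb and Dnajc), the subunits of the cytosolic chaperonin (Tcp1 and Cct2 to Cct8), the protein disulfide isomerases (Pdia), and Calr, Canx, P4hb, Hyou1, Sdf2l1, Xbp1, Atf4 and Ddit3. This rule found 97 of the 26608 gene symbols listed in the files. Of the 97, 58 were placed in the cytosol and nucleus, 24 in the endoplasmic reticulum and 10 in the mitochondrion. Dnajb14, a relative of the reticulum gene Dnajb12, was counted with the cytosol. Another 3 are transcription factors of the reticulum stress response, and 2 (Hspbap1 and Cct8l1) were left unplaced.

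Expression was measured by SAGE, which sequences 1 short tag near the 3′ end of each transcript, in FVB mouse embryos at embryonic day 8.5. All embryos had diabetic mothers, and no embryos of non-diabetic mothers are part of the comparison. Tissue was cut by laser from cryosections, and each library was made from 7 to 12 ng of total RNA. The 4 open neural tube libraries (9, 10, 13 and 14) came from tissue of normal shape just in front of the point (closure site 1) at which the neural folds first meet. The 4 protrusion libraries (1 to 4) came from abnormal outgrowths of the open neural plate, of which protrusion 1 was separated from the plate and protrusions 2 to 4 were attached to it. The labels give no axial level for the protrusions, so axial position and the protrusion itself cannot be told apart. They do not state that each library came from a separate embryo, so the p-values below reflect library-to-library spread alone, which may be technical.

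Chaperones hold unfolded proteins and release them in cycles of ATP hydrolysis. In the cytosol, HSP70 proteins bind short exposed stretches of a client, J-domain proteins deliver the client and trigger hydrolysis, HSP110 proteins and other exchange factors reset the cycle, and HSP90 finishes selected clients such as kinases and receptors, while the ring-shaped chaperonin encloses actin, tubulin and other clients. The reticulum and the mitochondrion have their own sets, and the reticulum adds lectin chaperones and disulfide isomerases for secreted and membrane proteins. When unfolded proteins build up in the reticulum, the unfolded protein response, with XBP1, ATF4 and ATF6 as its transcription factors, induces these reticulum genes. Stress of the reticulum has been studied as a feature of the embryonic neural tube in diabetic pregnancy.

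Total counts were 5668054 to 16655583 reads per library, so that 3 reads, taken as the floor, correspond to 0.180 to 0.529 CPM (counts scaled to a library of 1000000 reads). Such floors cover counting error only. The open neural tube libraries were the less complex ones. Of 3280 genes averaging 5 to 20 CPM, each open neural tube library had no read for 4.85% to 18.8%, and each protrusion library for 0.0915% to 0.549%. Markers of the primitive streak (T, Cdx2 and 5 others) summed to 2.96 to 25.9 CPM per open neural tube, with Mixl1, Eomes and Nkx1-2 at 0 in all 4. The same sum was 145 CPM for protrusion 1 and 661 to 1028 CPM for the attached protrusions. Open neural tube 13 stood apart from its label: 10 neural plate markers summed to 124 CPM there against 879 to 1349 CPM in the other open neural tubes, with Sox2 at 30.9 CPM. The same sum was 1076 CPM in protrusion 1 and 380 to 601 CPM in the attached protrusions, so the sum also went with the attachment of a protrusion. Sox2 was its largest part in protrusion 1, at 583 CPM. Not every marker followed the sum. Sox3 was at 0 in protrusion 1, 23.9 to 50.7 CPM in the attached protrusions and 0 to 3.18 CPM in open neural tube. Paraxial mesoderm markers summed to 73.5 to 526 CPM per open neural tube and 376 to 762 CPM per protrusion. Tbx6 was at 0.180 to 1.38 CPM in open neural tube and 26.5 to 285 CPM in protrusions. Msgn1 had no read in any open neural tube or in protrusion 1. Meox1, Tcf15, Foxc1 and Foxc2 overlapped between groups, and Foxc1 and Foxc2 were highest in open neural tube 13 (146 and 180 CPM). Surface ectoderm markers summed to 47.0 to 320 CPM per open neural tube, 1030 CPM in protrusion 3 (Cdh1 871 CPM) and 136 to 152 CPM in the other protrusions. Endothelial markers summed to 164 CPM in open neural tube 13, against 7.50 to 45.8 CPM in the other open neural tubes. Kdr and Flt1 were at 0 in all open neural tubes. Erythroid markers ranged from 1.06 to 1009 CPM in open neural tube and from 0.430 to 46.2 CPM in protrusions. The part of tissue composition and library complexity in the results below was not tested, and in such bulk tissue fewer cells of a type and less RNA per cell cannot be told apart.

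The promoters of 6 reticulum members hold the letters of the ER stress response element, the docking site of the unfolded protein response factors, and they are shown because these genes form the textbook target set against which reticulum stress is read. The element was searched on both strands as CCAAT and CCACG with 9 bases of any kind between them, in windows of 300 bases, from 250 bases before to 50 bases after each gene start (RefSeq, GRCm38.p6). It was found in 6 of the 20 reticulum members with a promoter in the table, and in 0 of 49 cytosolic and 0 of 7 mitochondrial members. Across all 27025 genes of the table the share was 0.137%. In the lines below, capitals mark the fixed letters of the element.
Hspa5: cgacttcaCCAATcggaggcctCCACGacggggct
Hsp90b1, nearer match: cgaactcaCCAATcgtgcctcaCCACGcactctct
Hsp90b1, farther match: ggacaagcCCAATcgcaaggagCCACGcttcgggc
Calr: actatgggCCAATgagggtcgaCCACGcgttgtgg
Canx: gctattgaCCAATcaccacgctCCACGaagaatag
Dnajc3: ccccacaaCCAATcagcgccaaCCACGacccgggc
Pdia6: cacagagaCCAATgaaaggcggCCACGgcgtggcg

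All 7 stretches lie upstream of the gene start and are written so that CCAAT is read first. On GRCm38.p6 they are chr2:34772017-34772051 for Hspa5, chr10:86705525-86705559 and chr10:86705630-86705664 for Hsp90b1, chr8:84847067-84847101 for Calr, chr11:50325792-50325826 for Canx, chr14:118937819-118937853 for Dnajc3 and chr12:17266483-17266517 for Pdia6. The plus strand is written for Hspa5, Dnajc3, Pdia6, Calr and the nearer Hsp90b1 match, and the minus strand for Canx and the farther one. A match is a description of letters and no measurement of binding.

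The heat shock element, bound by the heat shock factors of the cytosol, was searched on both strands as GAA, TTC and GAA, or as TTC, GAA and TTC, with 2 bases of any kind after the first and the second triplet. Hspd1 and Hspe1, which encode the 2 proteins of the mitochondrial chaperonin, share it: the genes lie head to head and the same bases between them carry the element for both. The other members with a match were Dnajb6 and Hsph1, and 0.662% of all genes in the table had one. The stretch is shown on the strand of each gene (chr1:55088056-55088084), with the fixed letters in capitals.
Hspe1, plus strand: ccgttctaGAAccTTCcgGAAggccccgc
Hspd1, minus strand: gcggggccTTCcgGAAggTTCtagaacgg

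SAGE counts a transcript by the tag beside its last CATG, the site cut by the anchoring enzyme NlaIII in the usual protocol. The labels do not name the enzyme or the rule that assigned tags to genes, so tags were read here from the GENCODE M21 transcripts (GRCm38) as CATG and the 23 bases after it. A transcript was matched for 96 of the 97 members. The last CATG lay in the coding sequence of 19 and in the 3′ UTR of 77. The tags of 6 genes on which the results turn are shown, with CATG in capitals, since their distance from the 3′ end of the transcript varies widely.
Hsp90ab1: CATGtctacaagaatcttctatcctgt
Hsp90b1: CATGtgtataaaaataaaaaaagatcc
Hspa4: CATGagacaaagtttaggaaaaactaa
Hspa14: CATGatagagtgttcagccaaggatat
Atf4: CATGtgtaaaggaggaagacactccct
Calr: CATGtcatctttaactacaagggcaag

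The first 3 lie in the 3′ UTR, at 160 bases from the transcript end for Hsp90ab1 (chr17:45567908-45567934, minus strand), 33 for Hsp90b1 (chr10:86690846-86690872, minus strand) and 52 for Hspa4 (chr11:53259839-53259865, minus strand). The last 3 lie in coding sequence, at 502 bases for Hspa14 (chr2:3491531-3491557, minus strand), 518 for Atf4 (chr15:80257024-80257050, plus strand) and 1616 for Calr (chr8:84844904-84844930, minus strand). None of the 6 tags was found as the tag of another gene.

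Members spanned the whole range of expression. By their mean over the 8 libraries, 4 stood at 1000 CPM or more (Hsp90ab1, Hspe1, Hsp90b1 and Hspd1), 23 at 100 to 1000, 32 at 10 to 100, 20 at 1 to 10 and 11 below 1 CPM. The other 7 had no read in any library, and they include the chaperones Hspb3 and Hspb7 and the isomerase Pdia2. Together the members took 2.07% to 2.40% of an open neural tube's reads and 2.42% to 2.77% of a protrusion's, so every protrusion lay above every open neural tube. Without Hsp90ab1 the summed levels overlapped, at 14538 to 18402 CPM in open neural tube and 15525 to 17759 CPM in protrusions. A read was seen for 69 to 75 members per open neural tube library and for 82 to 90 per protrusion. In all 4 open neural tubes 11 of the 90 members with a read were at 0 (12.2%, against 26.1% of all 18121 genes with a read), and no member was at 0 in all 4 protrusions (0%, against 1.02% of those genes).

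The question of the study was how protrusions differ from the normally shaped open neural plate. Of the 97 members 74 passed the filter on low counts and entered edgeR's quasi-likelihood test with 11036 genes. None of the 74 had a Benjamini-Hochberg adjusted p under 0.05, where 0.607% of all genes tested were called (67 genes). At an unadjusted p under 0.05 there were 12 members, 5 higher in protrusions (6.76%, background 7.02%) and 7 lower (9.46%, background 8.33%), together 16.2% against 15.3% of all genes. The levels of the groups did not overlap for 12 members (16.2%, background 13.4%): 7 were higher in every protrusion than in any open neural tube (9.46%, background 8.84%) and 5 were lower (6.76%, background 4.55%). These shares lie near those of all genes. Dnajb11, counted among the higher members here and below, had no read in any open neural tube and passed the filter only through its protrusion reads. Without open neural tube 13 the 2 counts were 10 and 6 (backgrounds 15.4% and 7.33%), and without protrusion 1 they were 17 and 6 (backgrounds 16.9% and 7.19%).

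Other tools made calls on the same counts. DESeq2 called 7 members (9.46%, background 7.2%): Hsp90ab1 and Hspa14 higher, Hspa4, Hsp90b1, Cct6a and Dnajc21 lower, and Dnajb11, which had to differ once it passed the filter. Limma-voom called 4 (Hsp90ab1, Hspa4, Hsp90b1 and, with the same limit, Dnajb11), which is 5.41% against a background of 3.35%. Within edgeR, a filter of at least 20 CPM in 4 libraries called 2 (Hsp90ab1 and Hspa4, 3.92%, background 2.81%). Upper-quartile factors called Hspa4 (1.35%, background 0.933%) and no scaling called Hsp90ab1 (1.35%, background 0.888%). With any 1 library left out, edgeR called no member, while it called 0.00867% to 1.5% of the genes then tested. The median log2 fold change (protrusion minus open neural tube) was 0.19 over the 74 members, 48 of them above 0, and 0.08 over all genes tested. By compartment it was 0.21 over 40 cytosolic, 0.09 over 9 mitochondrial and 0.07 over 21 reticulum members. For genes averaging at least 100 CPM it was 0.06 over 27 members and -0.13 over 1893 genes.

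**Figure D1:**
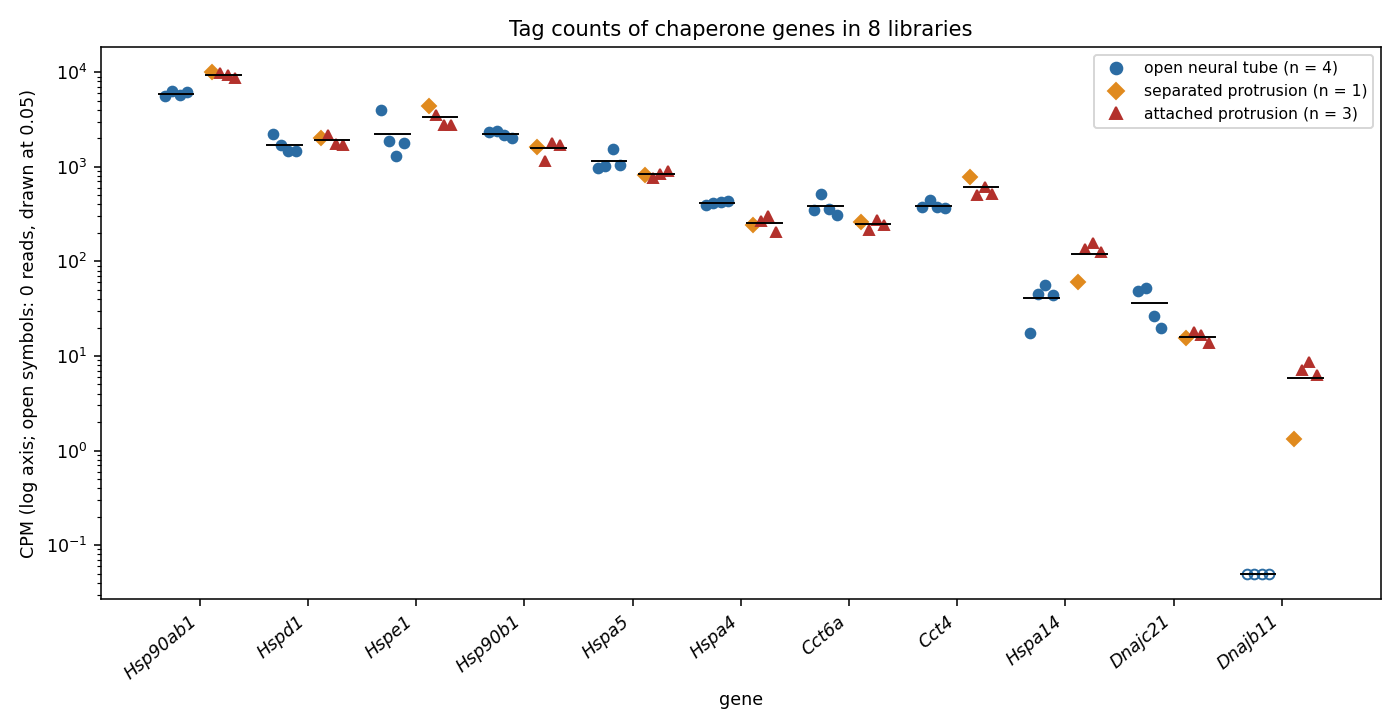
Levels of 11 members in CPM (log axis) in each library, with blue circles for open neural tube, the orange diamond for the separated protrusion, red triangles for the attached ones and lines for group means. Hsp90ab1, Cct4, Hspa14 and Dnajb11 lie higher in every protrusion, and Hsp90b1, Hspa5, Hspa4, Cct6a and Dnajc21 lower. Hspd1 and Hspe1 overlap. Open circles mark 0 reads and are drawn at 0.05 CPM.

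In the cytosol, HSP90 was the most abundant chaperone. Hsp90ab1, the constitutive HSP90, stood at 5563, 6289, 5708 and 6153 CPM in open neural tubes 9, 10, 13 and 14, and at 9959, 9913, 9242 and 8697 CPM in protrusions 1 to 4. The 2 ranges are far apart, and the separated protrusion did not differ in this from the attached ones. Means were 5928 ± 348 and 9453 ± 601 CPM (SD, n = 4 each), a log2 fold change of 0.59 ± 0.13 (SE) with an adjusted p of 0.0723 (edgeR). It was 0.56 to 0.68 with each library left out in turn, and adjusted p was 0.000598 by DESeq2 and 0.0274 by limma-voom. Hsp90aa1, the stress-inducible HSP90, was much lower in both groups, at 223 to 443 CPM in open neural tube and 256 to 735 CPM in protrusions. Its log2 fold change was 0.24 ± 0.34 (adjusted p = 0.812, edgeR), and it was -0.04 without protrusion 3, the library with its highest level.

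The HSP70 and HSP110 genes went different ways. Hspa4, an HSP110 protein that serves as exchange factor of HSP70, stood at 392, 419, 424 and 440 CPM in open neural tube and 240, 270, 303 and 207 CPM in protrusions. Every protrusion lay below every open neural tube, and the spread among open neural tubes was small. The means of 419 ± 20.2 and 255 ± 41.2 CPM (SD, n = 4 each) gave a log2 fold change of -0.81 ± 0.16. Its adjusted p of 0.0519 (edgeR) was the smallest of all members. With a library left out the fold ranged from -0.81 to -0.73, DESeq2 gave an adjusted p of 0.000286 and limma-voom 0.0282, and upper-quartile scaling or the filter at 20 CPM brought edgeR's call past the threshold. Another HSP110 gene, Hsph1, overlapped between groups (502 ± 44.8 against 474 ± 72.3 CPM, SD, n = 4 each), with a log2 fold change of -0.18 ± 0.15. The HSP110 gene Hspa4l was scarce and overlapped too. It stood at 7.01, 0, 0 and 31.2 CPM in open neural tube and 3.85 to 7.69 CPM in protrusions (log2 fold change -0.81). Hspbp1, a further exchange factor, stood at 69.3 ± 20.2 CPM in open neural tube and 47.5 ± 2.05 CPM in protrusions (SD, n = 4 each, adjusted p = 0.259, edgeR).

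Hspa14, an HSP70 that works on ribosomes with its J partner Dnajc2 on emerging chains, showed the opposite order. It stood at 17.4, 44.8, 56.9 and 43.9 CPM in open neural tube, 61.2 CPM in protrusion 1 and 137, 155 and 124 CPM in the attached protrusions. Protrusion 1 lay just above the highest open neural tube. Means were 40.7 ± 16.7 and 119 ± 40.8 CPM (SD, n = 4 each), a log2 fold change of 1.45 ± 0.39 with an adjusted p of 0.0881 (edgeR) and 0.0102 (DESeq2). Dnajc2 itself overlapped, at 83.1 to 226 CPM in open neural tube and 190 to 245 CPM in protrusions.

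Hspa8, the constitutive HSP70, varied more than any of these. It stood at 5.92, 18.9, 82.6 and 66.3 CPM in open neural tube and at 9.98, 125, 176 and 68.7 CPM in protrusions, and the groups overlapped. HSP70 genes have close relatives and processed copies elsewhere in the genome. The tags predicted here for Hspa8, Hspa1a and Hspa1b were not found in transcripts of another gene. The sources used here do not say how tags that match more than 1 gene were handled, so these levels remain uncertain. The heat-inducible pair Hspa1a and Hspa1b was scarce. Hspa1b reached 0, 23.5, 3.24 and 11.0 CPM in open neural tube and 0.818 to 3.06 CPM in protrusions, and Hspa1a had reads in 1 open neural tube (number 13, 2.10 CPM) and 0.287 to 1.80 CPM in protrusions. Over the 8 tested HSP70 and HSP110 genes the median log2 fold change was -0.49, and its sign changed with the filter and with single libraries left out.

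The 8 subunits of the cytosolic chaperonin ring sit in 1 protein complex at equal number, yet their tags did not shift together. Cct4 stood at 374, 445, 373 and 367 CPM in open neural tube and 787, 506, 614 and 522 CPM in protrusions. All protrusions were higher, the separated one most. The log2 fold change was 0.55 ± 0.18 (adjusted p = 0.154, edgeR). Cct6a showed the opposite, at 350, 520, 363 and 309 CPM in open neural tube and 262, 213, 271 and 244 CPM in protrusions. Its log2 fold change was -0.73 ± 0.18 (adjusted p = 0.0824 by edgeR and 0.0111 by DESeq2).

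As shares of the ring's summed tags, Cct4 made up 13.7% to 18.4% of an open neural tube and 20.1% to 24.9% of a protrusion, and Cct6a 12.9% to 17.6% and 8.27% to 9.74%. Cct3 was the largest share in every library, at 23.5% to 39.3%. Cct7 varied widely among open neural tubes, with 51.6 CPM for number 13 and 348 CPM for number 10, and stood at 279 to 450 CPM in protrusions (log2 fold change 0.79 ± 0.47). Tcp1, the alpha subunit, lay slightly higher in every protrusion (182 to 211 CPM against 130 to 174 CPM, adjusted p = 0.629, edgeR). Cct2, Cct5 and Cct8 overlapped between groups. The ring's total overlapped too, at 2002 to 2953 CPM in open neural tube and 2504 to 3166 CPM in protrusions, these sums including the minor gene Cct6b.

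**Figure D2:**
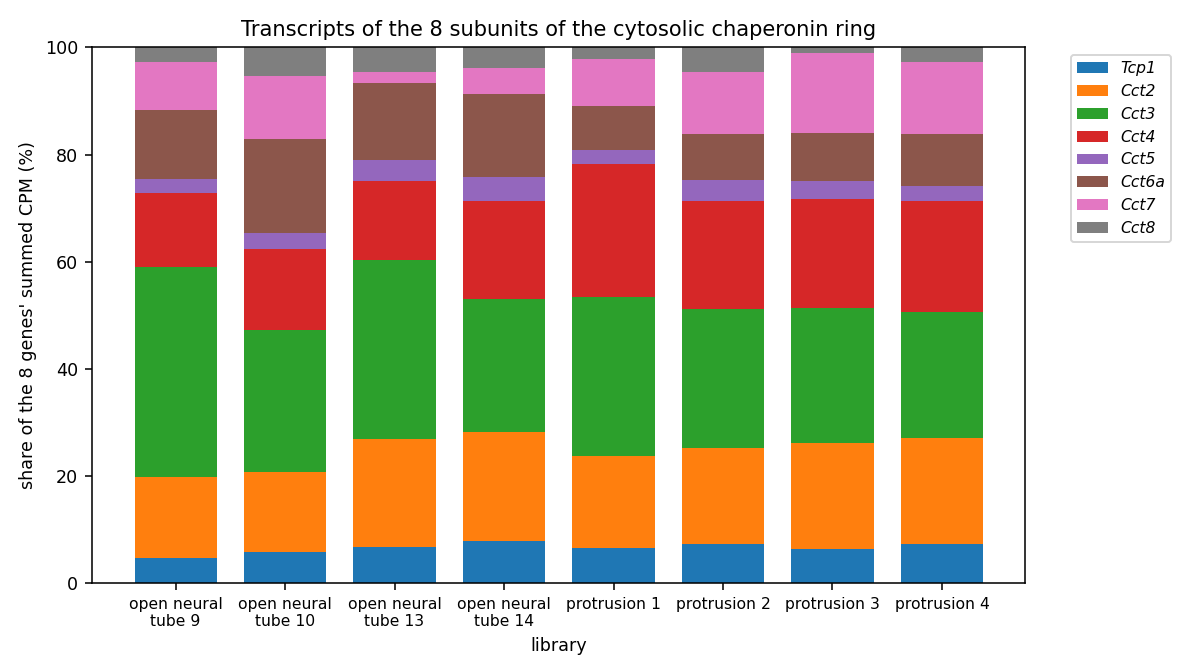
Share of each of the 8 chaperonin subunit genes in their summed CPM (percent) by library, as stacked bars. Cct4 is wider and Cct6a narrower in all 4 protrusions than in all 4 open neural tubes, while Cct3 is the widest band throughout.

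Among the 27 J-domain proteins placed in the cytosol and nucleus 19 were tested, and 12 had a fold above 0. Dnajb14 was not among those tested. The 4 most abundant (Dnaja2, Dnaja1, Dnajc7 and Dnajc8) had lower means in protrusions. Dnaja2, a co-chaperone that loads clients onto HSP70, stood at 974, 673, 977 and 971 CPM in open neural tube and 709, 885, 529 and 602 CPM in protrusions (log2 fold change -0.48 ± 0.23, adjusted p = 0.356, edgeR). Its relative Dnaja1 was at 478 ± 56.9 and 383 ± 42.9 CPM (SD, n = 4 each), a log2 fold change of -0.42 ± 0.17. Dnajc7, which links HSP70 and HSP90, was at 391 ± 64.5 and 304 ± 60.9 CPM (SD, n = 4 each). All 3 pairs of ranges overlapped.

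Dnajc21, a J protein of ribosome assembly, did not overlap: it stood at 48.5, 52.2, 26.2 and 19.7 CPM in open neural tube and 15.4, 18.1, 16.5 and 13.8 CPM in protrusions. The gap between the lowest open neural tube and the highest protrusion was small. The log2 fold change was -1.28 ± 0.38 (adjusted p = 0.125 by edgeR and 0.0415 by DESeq2). Dnajb1, the main HSP40 and heat shock responsive partner of HSP70, was at 2.37, 5.47, 7.81 and 5.01 CPM in open neural tube, 2.62 CPM in the separated protrusion and 23.5, 35.5 and 23.4 CPM in the attached ones. The separated protrusion thus lay within the open neural tube range. With all protrusions the log2 fold change was 1.93 ± 0.74 (adjusted p = 0.24), and with the attached ones alone 2.30 ± 0.56 (adjusted p = 0.0766, both edgeR).

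Small heat shock proteins, which bind unfolded proteins without ATP, were nearly absent. Of 8 genes, 2 were tested. Hspb11, which despite its name is a subunit of intraflagellar transport in cilia, stood at 36.0, 16.2, 14.9 and 0 CPM in open neural tube and 48.4, 52.5, 30.9 and 27.8 CPM in protrusions. The groups overlapped (log2 fold change 1.16 ± 1.00, adjusted p = 0.661, edgeR). Hspb1, the widespread small heat shock protein, reached 19.1 CPM in protrusion 3 and at most 10.2 CPM elsewhere. Its tag is also that of 1 other gene, so these reads are uncertain. Without protrusion 3 its log2 fold change was -0.81, against 0.73 with it.

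The mitochondrial chaperones were abundant, and none passed the test. Hspd1 and Hspe1, which form the folding chamber of the matrix and its lid, stood at 1719 ± 352 against 1911 ± 217 CPM and at 2247 ± 1185 against 3373 ± 780 CPM (open neural tube against protrusions, SD, n = 4 each). Hspe1 was at 3982, 1895, 1305 and 1806 CPM in open neural tube and 4410, 3537, 2743 and 2801 CPM in protrusions. Only open neural tube 9 reached the level of the protrusions. Without it the log2 fold change was 1.00, against 0.50 ± 0.34 with all libraries (adjusted p = 0.546, edgeR). Per library, Hspe1 tags were 0.887 to 1.80 times those of Hspd1 among open neural tubes and 1.57 to 2.17 times among protrusions, so these genes that share their promoter bases were not in 1 fixed ratio. Both tags lie 111 bases from the transcript end.

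Hspa9, the HSP70 of the matrix, stood at 381 ± 69.1 and 344 ± 66.3 CPM (SD, n = 4 each, log2 fold change -0.25 ± 0.20). Of the mitochondrial J proteins, Dnajc11 of the inner membrane contact sites was steadiest, at 198 to 257 and 232 to 264 CPM. Dnajc19, a subunit of the import motor, was at 41.2 to 66.3 CPM in open neural tube and 30.8 to 49.4 CPM in protrusions. Its relative Dnajc15 was at 1.67 to 4.64 CPM in open neural tube, 4.58 CPM in protrusion 1 and 8.41 to 12.8 CPM in the attached protrusions (log2 fold change over all protrusions 1.20 ± 0.80, adjusted p = 0.543, edgeR). All 9 tested genes but Dnajc15 stayed within 0.50 of 0 on the log2 scale.

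The 2 most abundant chaperones of the reticulum stood lower in all protrusions. Hsp90b1 (GRP94), the HSP90 of the reticulum lumen, was at 2354, 2371, 2146 and 2030 CPM in open neural tube and 1616, 1156, 1802 and 1681 CPM in protrusions. The groups did not overlap, and open neural tubes lay close together. Means were 2225 ± 165 and 1564 ± 283 CPM (SD, n = 4 each), a log2 fold change of -0.61 ± 0.15 with an adjusted p of 0.0832 by edgeR, 0.00943 by DESeq2 and 0.0421 by limma-voom. Leaving out single libraries moved it between -0.65 and -0.45.

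Hspa5 (BiP), the HSP70 of the reticulum, which also keeps the stress receptors silent, was at 974, 1028, 1541 and 1047 CPM in open neural tube and 825, 756, 848 and 912 CPM in protrusions. The ranges did not overlap, with the highest protrusion close to the lowest open neural tube. The log2 fold change was -0.55 ± 0.19 (adjusted p = 0.175, edgeR). It was -0.33 without open neural tube 13, the library with the highest Hspa5 and the few neural plate tags. Since Hsp90ab1 was higher and Hsp90b1 lower, cytosolic Hsp90ab1 tags were 2.36 to 3.03 times those of reticulum Hsp90b1 among open neural tubes and 5.13 to 8.57 times among protrusions, without overlap.

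The lectin chaperones, which hold glycoproteins during folding, gave unlike readings. Canx, membrane-bound calnexin, was at 309, 278, 364 and 314 CPM in open neural tube and 309, 463, 633 and 341 CPM in protrusions, which overlapped (log2 fold change 0.35 ± 0.22, adjusted p = 0.506, edgeR). Calr, its soluble partner calreticulin, was at 0.0987 CPM (1 read) in open neural tube 9 and 14.1, 29.4 and 14.9 CPM in the other open neural tubes. It was at 0.491 CPM (3 reads) in the separated protrusion and 60.2, 85.9 and 46.2 CPM in the attached ones. So open neural tube 9 and protrusion 1 were both at or under their floor, and all attached protrusions stood above every other library. Over all protrusions the log2 fold change was 1.60 ± 1.24 (adjusted p = 0.618), and over the attached ones 2.01 ± 1.01 (adjusted p = 0.358, both edgeR). It was 2.28 without open neural tube 13.

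Hyou1, the large exchange factor of BiP, was at 4.54, 13.9, 12.5 and 6.21 CPM in open neural tube, 3.93 CPM in protrusion 1 and 34.8, 26.7 and 15.4 CPM in protrusions 2 to 4. Sdf2l1, a BiP cofactor, was at 5.23, 0, 4.02 and 5.61 CPM in open neural tube, 3.60 CPM in protrusion 1 and 16.8, 19.9 and 22.1 CPM in protrusions 2 to 4. In both, the separated protrusion was below most open neural tubes and the attached ones were above all. Adjusted p over all protrusions was 0.533 and 0.452 (edgeR).

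Of the disulfide isomerases, which make and shuffle disulfide bonds in the reticulum, P4hb (PDI itself) stood at 152 ± 22.9 and 170 ± 20.9 CPM and Pdia6 at 99.7 ± 20.9 and 110 ± 12.2 CPM (open neural tube and protrusions, SD, n = 4 each). Pdia3, the isomerase that works with calnexin and calreticulin, was at 5.43, 23.6, 31.3 and 35.7 CPM in open neural tube, 11.8 CPM in protrusion 1 and 40.7, 47.8 and 73.4 CPM in protrusions 2 to 4 (log2 fold change over all protrusions 0.76 ± 0.62, adjusted p = 0.631, edgeR). Pdia4 stood at 34.0 to 44.7 CPM in open neural tube, 24.4 CPM in protrusion 1 and 45.0 to 58.2 CPM in the others. Only its attached protrusions lay above the open neural tubes, protrusion 4 by very little. Pdia5 overlapped widely, at 12.1 to 68.5 and 11.6 to 28.6 CPM.

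Among J proteins of the reticulum, Dnajb11 (ERdj3), the soluble BiP partner that binds unfolded chains, had no read in any open neural tube. It was at 1.31, 7.17, 8.66 and 6.25 CPM in protrusions 1 to 4, or 8, 50, 99 and 52 reads. The mean of 5.85 CPM was at least 11.0-fold higher than the floor of the open neural tube library with the highest floor, 0.529 CPM. It passed the low-count filter only through the protrusions, so no p is given as support. Over all 8 libraries Dnajb11 averaged 2.92 CPM. Even among genes averaging 5 to 20 CPM, many had no read in open neural tube libraries, as given above. The part of this in the result was not tested. Dnajc14, a membrane J protein, was at 16.7, 4.76, 19.3 and 14.9 CPM in open neural tube and 20.8, 23.7, 31.3 and 32.6 CPM in protrusions, without overlap (log2 fold change 0.84 ± 0.47, adjusted p = 0.452, edgeR).

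Dnajc10 (ERdj5), a disulfide reductase, and Dnajc3 (p58IPK), which damps the stress kinase of the response, overlapped, at 223 ± 70.0 against 248 ± 30.4 CPM and 70.6 ± 28.2 against 77.3 ± 6.60 CPM (SD, n = 4 each). Dnajb9 (ERdj4), a classic target of XBP1, was at 17.0, 0.353, 8.23 and 18.5 CPM in open neural tube and 9.62 to 14.6 CPM in protrusions. Its log2 fold change was 0.01 ± 0.87, and -0.11 ± 1.01 with the attached protrusions alone.

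**Figure D3:**
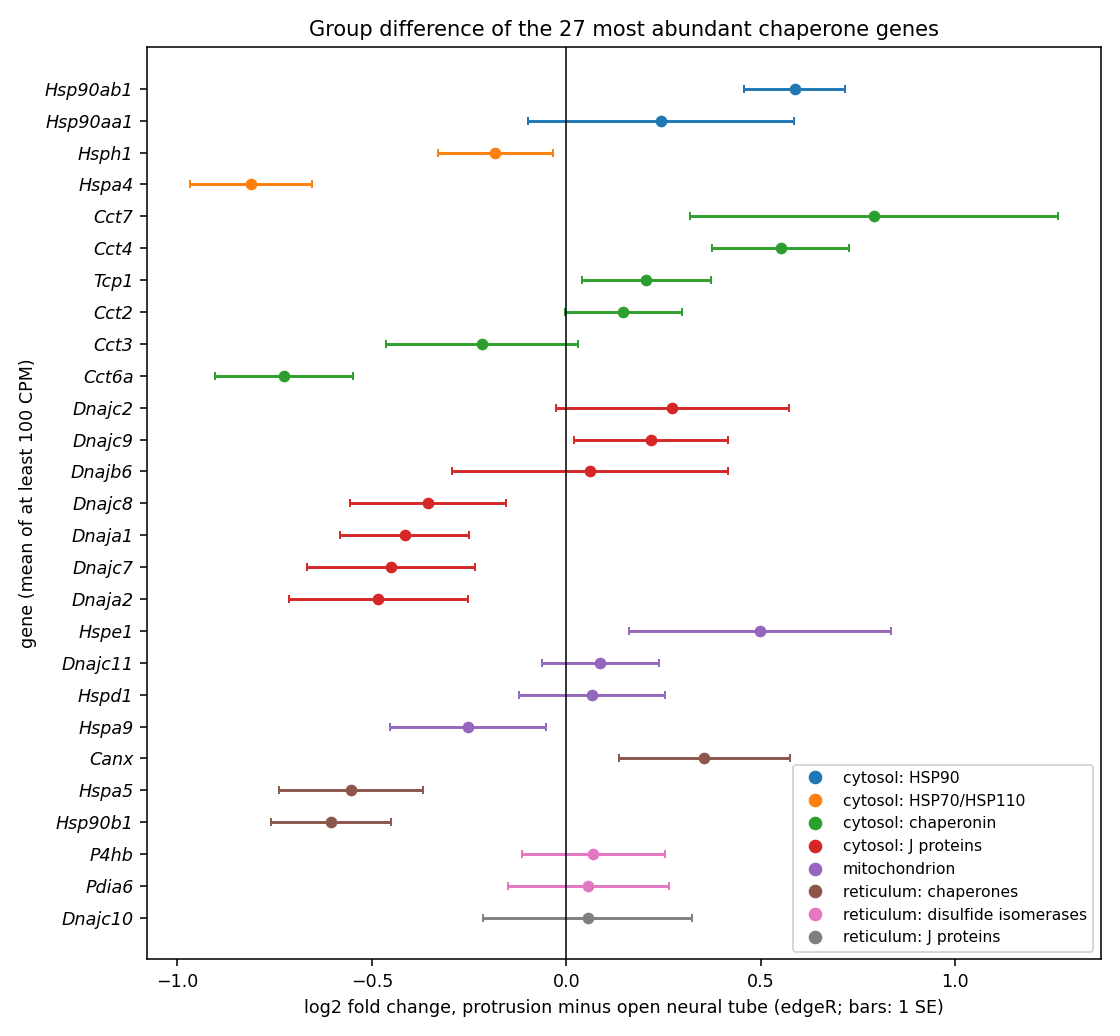
Log2 fold change, protrusion minus open neural tube, of the 27 members with a mean of at least 100 CPM (edgeR, bars 1 SE), by class. The groups did not overlap for Hsp90ab1, Cct4 and Tcp1, right of 0, and Hspa4, Cct6a, Hsp90b1 and Hspa5, left of 0. No gene passed an adjusted p of 0.05.

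The 3 stress factors differed. Xbp1, whose spliced form drives reticulum chaperone genes, was at 33.9, 34.6, 30.9 and 22.1 CPM in open neural tube and 38.1, 43.6, 45.3 and 73.4 CPM in protrusions. All protrusions were higher, the separated one by little (log2 fold change 0.64 ± 0.30, adjusted p = 0.357, edgeR). SAGE counts do not separate the spliced from the unspliced form. Atf4, translated under stress, was at 6.91, 18.9, 22.8 and 0 CPM in open neural tube, 13.9 CPM in protrusion 1 and 53.2, 54.0 and 48.0 CPM in protrusions 2 to 4. The separated protrusion lay among the open neural tubes (log2 fold change over all protrusions 1.71 ± 1.03, adjusted p = 0.491, edgeR). Ddit3 (CHOP), a target of ATF4 linked to cell death, was at 5.33, 19.4, 16.2 and 13.8 CPM in open neural tube and 16.9, 7.31, 8.40 and 9.37 CPM in protrusions, with a log2 fold change of -0.46 ± 0.57.

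Several of these genes shared 1 arrangement: all 3 attached protrusions above the 5 other libraries. It was noticed in these data and is given as a description. It held for 14 of the 74 tested members (18.9%, against 12.0% of all genes tested): Calr, Hyou1, Sdf2l1, Pdia3, Pdia4, Dnajb11 and Dnajc14 of the reticulum, Xbp1 and Atf4, Dnajb1, Dnajb5, Dnajc27 and Hspa14 of the cytosol, and Dnajc15. For Dnajb11, Dnajc14, Hspa14 and Xbp1 the separated protrusion also lay above the open neural tubes. The reverse arrangement held for Dnajc8, a splicing-associated J protein, alone (1.35%, against 4.88% of all genes). Across the 8 libraries the members closest to Calr by Pearson's correlation of log2(CPM + 1), among 58 members with a mean of at least 10 CPM, were Hspa8 (0.95), Dnajc27 (0.93) and Pdia3 (0.93). The fit with the attached protrusions alone called no member of 78 (background 1.5%, 172 of 11466 genes).

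**Figure D4:**
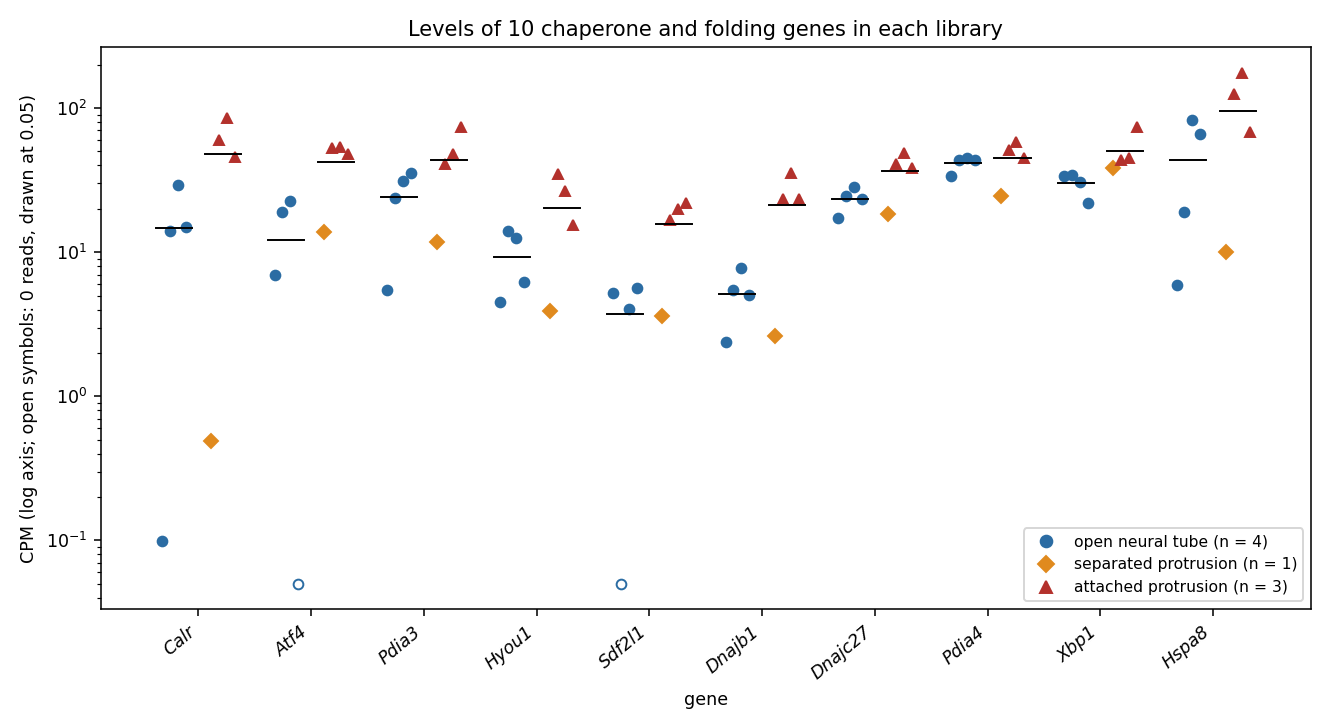
Levels in CPM (log axis) of 9 members whose attached protrusions (red triangles) lie above all other libraries, and of Hspa8, whose attached protrusions overlap with open neural tube (blue circles). The separated protrusion (orange diamond) lies among or below the open neural tubes except for Xbp1. Lines are group means and open circles mark 0 reads, drawn at 0.05 CPM.

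The distance of the tag from the transcript end ran along with this arrangement. The median distance was 282.5 bases for the 14 members and 127 for the other 59 tested members with a tag. For all genes tested the same was seen, at 329 bases for 1172 genes with that arrangement and 142 for 8199 without it. The share of genes with attached protrusions on top was 7.10% of 3268 genes whose tag lay within 100 bases of the end, 13.9% of 2282 genes at 200 to 400 bases, 28.6% of 1281 genes at 400 to 800 bases and 44.5% of 220 genes beyond 800 bases. The median log2 fold change of attached protrusion minus open neural tube went from -0.19 to 1.56 between the nearest and the farthest of these classes. With all 4 protrusions it went from -0.15 to 1.21. For genes averaging at least 100 CPM, protrusion minus open neural tube was -0.30 within 100 bases, 0.37 at 400 to 800 bases and 0.03 for the 15 genes beyond 800 bases.

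Library by library, the 82 genes beyond 800 bases that averaged at least 20 CPM had a median deviation of log2(CPM + 1) from their own mean of -0.88, -0.43, 0.14 and -0.23 in open neural tubes 9, 10, 13 and 14, -0.18 in protrusion 1 and 0.81, 1.24 and 0.77 in protrusions 2 to 4. Calr was at or under its floor in open neural tube 9 and protrusion 1, and at 14.1, 29.4 and 14.9 CPM in open neural tubes 10, 13 and 14. Set against the median of all genes in its own distance class, the attached difference of Calr was 0.45, of Atf4 1.31, of Hspa14 0.99, of Dnajb1 2.04, of Pdia4 -0.04 and of Dnajc27 0.08. With all protrusions, Cct4 was at 0.02 and Tcp1 at -0.33 against their class, while Hsp90ab1 was at 0.58, Hspa4 at -0.66, Hsp90b1 at -0.46 and Hspa5 at -0.56. These members all average at least 100 CPM, but the class medians used are of all genes tested. Over genes of at least 100 CPM the medians were lower. They were -0.30 against -0.15 within 100 bases, -0.11 against 0.01 at 100 to 200, and 0.37 against 0.54 at 400 to 800. No distance could be given for Cct6a. The part of tag position in the group differences was not tested.

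**Figure D5:**
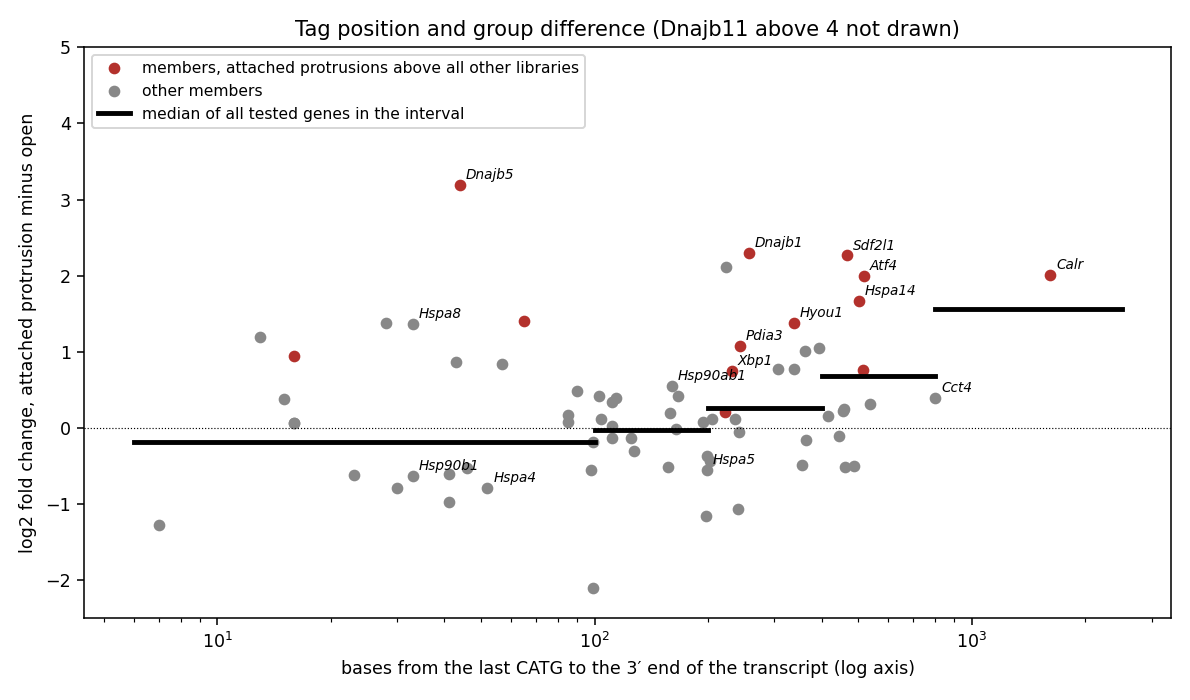
Bases from the last CATG to the transcript end (log axis) against the log2 fold change of attached protrusion minus open neural tube for tested members, with black bars for the median of all genes tested in each distance class (-0.19 nearest the end, 1.56 beyond 800 bases). Members with attached protrusions above all other libraries are red; Dnajb11 is off the scale.

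Of 108 further genes of folding and quality control, listed by role outside the symbol rule, 95 were tested, and none was called higher or lower (background 0.281% higher and 0.326% lower). At an unadjusted p under 0.05 there were 6 higher (6.32%, background 7.02%) and 14 lower (14.7%, background 8.33%). DESeq2 called 7 (7.37%, background 7.2%) and limma-voom 1 (1.05%, background 3.35%). Per list, fold changes were above 0 for 13 of 25 cytosolic co-chaperones, 7 of 14 mitochondrial quality control genes, 15 of 26 reticulum folding genes, 6 of 14 genes of reticulum degradation and 7 of 16 stress response genes. The gene with the smallest p in each list was lower in protrusions. Phb2, a prohibitin of the mitochondrial inner membrane, stood at 1584, 1852, 1522 and 1542 CPM in open neural tube and 741, 1354, 692 and 709 CPM in protrusions (log2 fold change -0.97 ± 0.25, adjusted p = 0.0832, edgeR).

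Derl2, a channel protein that exports misfolded proteins from the reticulum, was at 132 ± 27.5 and 76.8 ± 13.1 CPM (SD, n = 4 each), a log2 fold change of -0.86 ± 0.22 (adjusted p = 0.0832, edgeR). Pfdn1, a prefoldin subunit that hands clients to the chaperonin, was at 69.6 ± 6.78 and 40.8 ± 7.49 CPM (SD, n = 4 each, adjusted p = 0.108, edgeR). Fkbp9, a prolyl isomerase of the reticulum, and Ppp1r15b, which reverses the translation block of the stress response, had log2 fold changes of -0.84 ± 0.26 and -0.66 ± 0.22. For Phb2, Derl2 and Pfdn1 the groups did not overlap.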

How the data were processed

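The authors deposited 1 table per library with whole-number read counts per gene symbol, per the file headers, unscaled. Genome build mm9 is named in the submitters' processing notes. The sources used here do not state the aligner, how a tag was assigned to a gene, what was done with tags of more than 1 gene, or whether strand was used. Libraries were made with a SOLiD SAGE kit, per the labels' protocols. Groups come from the source names, open neural tube numbers from the titles, and protrusion numbers from the order of listing.

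CPM is the count over the library total. Groups were compared on the deposited counts in R 4.3.3 with edgeR 4.0.16: filterByExpr with minimum count 10, TMM factors and the robust quasi-likelihood test. P-values are from both sides, with adjustment (Benjamini-Hochberg) over all 11036 genes and a threshold of 0.05. The SE of a log2 fold change was derived from the F statistic. The common dispersion was 0.556. Alternatives were 3 other scalings (relative log expression, upper quartile, none), no filter on low counts, at least 20 CPM in 4 libraries, DESeq2 1.42.0, limma-voom (limma 3.58.1) and leaving out each library in turn. The fitting steps were tested on simulated data with 50 changed genes at each fold. EdgeR called 2% of them at a 2-fold change, 40% at 4-fold, 48% at 8-fold and 66% at 16-fold. A member that was not called may therefore still differ. PCR copies cannot be told from separate molecules, so counting error is a lower limit of the true one.

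Members and lists were chosen with earlier results of these data known. Genes named in full are, per class, the 3 most abundant and the 3 of smallest p, 29 well-known chaperones and stress factors, and members in a pattern or count named in the text. From each further list the gene of smallest p is named. Tags were read from the protein-coding GENCODE M21 transcript of the best APPRIS level, then the longest. Tags on 1 chromosome are not reported here. Promoters (81 members matched) and tags are on GRCm38, another build than that of the files.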

Additional observations from a re-analysis of the deposited data

Results flagged for a closer look

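Within each group of 4 libraries the highest and the lowest value of the 50 named members were compared with the rest by Dixon's ratio of gap to range at the 95% level. Of 99 such groups 9 stood out, and chance gives about 1 in 20 for normally distributed values. A group with reads in 1 library alone stands out by construction, as for Hspa1a and Hspb6 in open neural tube 13. Whether 9 is more than chance gives was not tested. Hspa5 in open neural tube 13 was 1541 CPM against 974 to 1047 CPM in the other open neural tubes. In the same library Hspa1a was at 2.10 CPM and Hspb6 at 0.0600 CPM (1 read), both without a read in the other 3. Cct4 in open neural tube 10 was 445 CPM against 367 to 374 CPM, and Dnaja2 there was 673 CPM against 971 to 977 CPM. In open neural tube 9, Dnajb12 was 4.44 CPM against 0.119 to 0.176 CPM, and Pdia4 was 34.0 CPM against 43.5 to 44.7 CPM. Atf4 in the separated protrusion was 13.9 CPM against 48.0 to 54.0 CPM in the attached ones. Hspb1 in protrusion 3 was 19.1 CPM against 1.43 to 2.40 CPM in the other protrusions.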

How the results depend on the processing

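The count of 67 genes called among all genes was 103 with upper-quartile factors, 157 with at least 20 CPM in 4 libraries, 795 by DESeq2 and 370 by limma-voom, and 1 to 172 with single libraries left out. The count of 0 members was 1 with upper-quartile factors (Hspa4), 1 without scaling factors (Hsp90ab1), 2 with at least 20 CPM (both), 7 by DESeq2 and 4 by limma-voom, and 0 to 0 with a library left out. For the further lists, DESeq2 called 7, limma-voom 1 and the fits without a library 0 to 1 (1 without protrusion 2). The count of members higher without overlap, 7 with all libraries, was 10 to 17 without open neural tube 13 or without protrusion 1, alternatives added after seeing the data. Among the class medians and the 48 tested members that the naming rule takes, only those given below changed sign.

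The median log2 fold change of the HSP70 and HSP110 class (-0.49) was 0.52 without the filter, 0.45 with at least 20 CPM, 0.44 by limma-voom and -0.39 to 0.84 with a library left out. That of cytosolic J proteins (0.27) was 0.38 without scaling, 0.42 without the filter, 0.15 with at least 20 CPM and 0.24 to 0.39 leaving out libraries. For small heat shock genes the median of 0.94 rested on 2 tested genes alone. These were Hspb11, a subunit of intraflagellar transport, and Hspb1, whose tag is shared with another gene. This class gave 3.03 without the filter, 2.79 by limma-voom and 0.26 to 1.68 leaving out libraries. Mitochondrial genes (0.09) gave 0.18, 0.16 and 0.20 without scaling, without the filter and by limma-voom, and 0.065 to 0.38 leaving out libraries. Reticulum J proteins (0.06) gave 0.76 by limma-voom and -0.10 to 0.90 leaving out libraries. The reticulum chaperones (0.35) gave -0.07 with at least 20 CPM. The stress factors (0.64) gave 1.20 with at least 20 CPM.

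With a library left out, the fold changes of 10 of these members crossed 0: Cct3 (-0.37 to 0.031), Cct5 (-0.15 to 0.032), Dnajc10 (-0.10 to 0.24), Dnajc3 (-0.18 to 0.23), Hsp90aa1 (-0.036 to 0.47), Hspb1 (-0.81 to 2.20), P4hb (-0.013 to 0.25), Pdia4 (-0.046 to 0.21), Pdia5 (-0.78 to 0.21) and Pdia6 (-0.038 to 0.18). Dnajb9, outside the rule, went from 0.01 to -0.11 without protrusion 1. Cct5 was 0.0032 without scaling, and Pdia4 was -0.0010 with upper-quartile factors and -0.0022 by limma-voom. The cause was not tested. No paired analysis was possible because the labels give no pairing of libraries. Levels under 0.180 to 0.529 CPM rest on fewer than 3 reads, too few to compare libraries.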
